A study of Mus musculus with 6 samples.

Results

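The 10 genes described here encode the 6 mouse peroxiredoxins (*Prdx1* to *Prdx6*), the glutathione peroxidases *Gpx1* and *Gpx4*, thioredoxin (*Txn1*) and cytosolic thioredoxin reductase (*Txnrd1*). They were taken by symbol from a table of 47069 genes, with earlier results of these data known, and all 10 passed the filter on low counts that left 14736 genes for testing. The table holds bulk RNA-seq of LβT2 cells, an immortalized gonadotrope line of the mouse anterior pituitary, at passage 14. All 6 libraries came from cells exposed to 2 nM GnRH, the hypothalamic hormone that drives gonadotropes, for 40 min. In the fresh group (n = 3) trypsinized cells were lysed directly, and in the RNA-Best group (n = 3) they were kept in the preservative RNA-Best in the cold for at least 4 days before lysis. No vehicle-treated library is part of the series, so the values describe preservation and not the response to GnRH. The preservative, the storage time and the added spin cannot be told apart. Separate cultures are not stated for the 3 libraries within a group, so the p-values measure the spread between these libraries, which may be technical.

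Peroxiredoxins and glutathione peroxidases reduce hydrogen peroxide and organic peroxides. A peroxiredoxin does this with a cysteine at its active site, which typical members pass on as a disulfide to thioredoxin, and thioredoxin reductase restores thioredoxin with electrons from NADPH. Glutathione peroxidases 1 and 4 use selenocysteine, an amino acid inserted at a UGA codon that would otherwise end translation, and draw their electrons from glutathione. These enzymes are abundant housekeeping proteins in most cells, and the secretory pathway of hormone-producing cells adds an endoplasmic reticulum member, *Prdx4*.

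The catalytic residue gives the 6 peroxiredoxins their common signature, and the coding sequence around it is shown to let the family be compared. Each window is 30 bases of the main protein-coding transcript in GENCODE release M21 on GRCm38, written 5′ to 3′, with the codon of the peroxide-reacting cysteine in capitals. The windows of *Prdx3* and *Prdx4* cross an exon junction, so their coordinates include an intron.
Prdx1 (chr4:116691802-116691831, plus strand): cctcttgactttacttttgtgTGTcccacg
Prdx2 (chr8:84970462-84970491, plus strand): ccactggacttcacttttgttTGCcccacg
Prdx3 (chr19:60870121-60871430, minus strand): cctttggatttcacatttgtgTGTcctaca
Prdx4 (chrX:155332454-155334848, minus strand): ccactggatttcacctttgtgTGTccaact
Prdx5 (chr19:6907982-6908011, minus strand): cctggggcatttacacctggcTGTtctaag
Prdx6 (chr1:161247362-161247391, minus strand): ccacgggactttaccccagtgTGCaccaca

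Of the 30 bases of the *Prdx1* window, 25 were the same in *Prdx2*, 23 in *Prdx3*, 23 in *Prdx4*, 20 in *Prdx6* and 17 in *Prdx5*. Despite this likeness the longest run of identical bases shared by the coding sequences of any 2 of the 10 members was 23, between *Prdx2* and *Prdx4*. This is shorter than a sequencing read.

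An in-frame TGA ahead of the final stop codon was found in 3 members, *Gpx1*, *Gpx4* and *Txnrd1*, and the annotation marks each as a selenocysteine. It is codon 47 in *Gpx1*, codon 73 in *Gpx4* and codon 498 in *Txnrd1*, next to the last codon of that reading frame. Thioredoxin has no such codon and works through a pair of cysteines, the first at codon 32. The windows show the TGA, or for *Txn1* the cysteine pair, in capitals.
Gpx1 (chr9:108339436-108339465, plus strand): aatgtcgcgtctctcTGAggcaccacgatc
Gpx4 (chr10:80054722-80054751, plus strand): aacgtggcctcgcaaTGAggcaaaactgac
Txnrd1 (chr10:82896016-82896045, plus strand): gacatcctccagtctggctgcTGAggttaa
Txn1 (chr4:57951812-57951841, minus strand): gctacgtggTGTggacctTGCaaaatgatc

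The effect of preservation on each gene was tested over the whole table (quasi-likelihood test of edgeR, Benjamini-Hochberg adjustment, false discovery rate of 5%). Of the 10 members, 9 were lower in RNA-Best and *Txnrd1* did not pass. With a robust offset for exonic length the number was also 9, but *Prdx3* lost its call and *Txnrd1* gained one. None was higher, since 0 passed in that direction in edgeR, 0 at an unadjusted p under 0.05, 0 with DESeq2 and 0 with limma-voom. Over all tested genes 50.8% passed, 24.8% lower and 26% higher in RNA-Best. The median log2 fold change of the members was -0.32, against -0.01 over all tested genes. In the same 9 members every RNA-Best library lay below every fresh library in CPM, the count scaled by the total of its library, whereas the groups did not overlap in 57.5% of all tested genes and RNA-Best lay below in 27.1%. The summed level of the 10 genes was 3170, 3117 and 3250 CPM in the fresh libraries and 2615, 2563 and 2639 CPM in the RNA-Best libraries. The sum was 18.0% smaller in RNA-Best, with no overlap between groups (two-sided p = 0.1 by an exact permutation test, the lowest value that groups of 3 libraries can give). In bulk RNA, fewer cells that express a gene and less of its RNA per cell cannot be told apart. CPM is a share of the library's total, so a lower value can also come with more RNA from other genes. The deposited values held 0 spike-in rows, so absolute amounts are not known.

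Libraries held 14477304 to 47438746 counts in the fresh and 4909418 to 11999363 in the RNA-Best group, so depth differed with preservation. The least counted member, *Gpx1*, still had 290 counts in the shallowest library. Of the gonadotrope markers 6 of 6 were present, with a summed level of 3584 to 3620 CPM in fresh and 3042 to 3122 CPM in RNA-Best libraries. *Cga* made up about as much as the others together, and the markers did not move alike: 4 were lower in RNA-Best, *Lhb* did not pass (25.1 to 28.1 CPM in fresh, 27.6 to 29.7 CPM in RNA-Best) and *Gnrhr*, the GnRH receptor, was higher, at 109 to 125 CPM in fresh and 159 to 173 CPM in RNA-Best libraries. Of 8 markers of other pituitary cells, 3 (*Prl*, *Pou1f1* and *Sox2*) had no counts. The summed level of the list was 0.839 to 1.17 CPM in fresh and 1.43 to 2.39 CPM in RNA-Best libraries, nearly all of it *Tshb*. *Tshb*, the only gene of this list past the low-count filter, had 133 counts in all libraries together. It was higher in RNA-Best by 0.91 on the log2 scale (edgeR adjusted p = 0.0035).

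**Figure D1:**
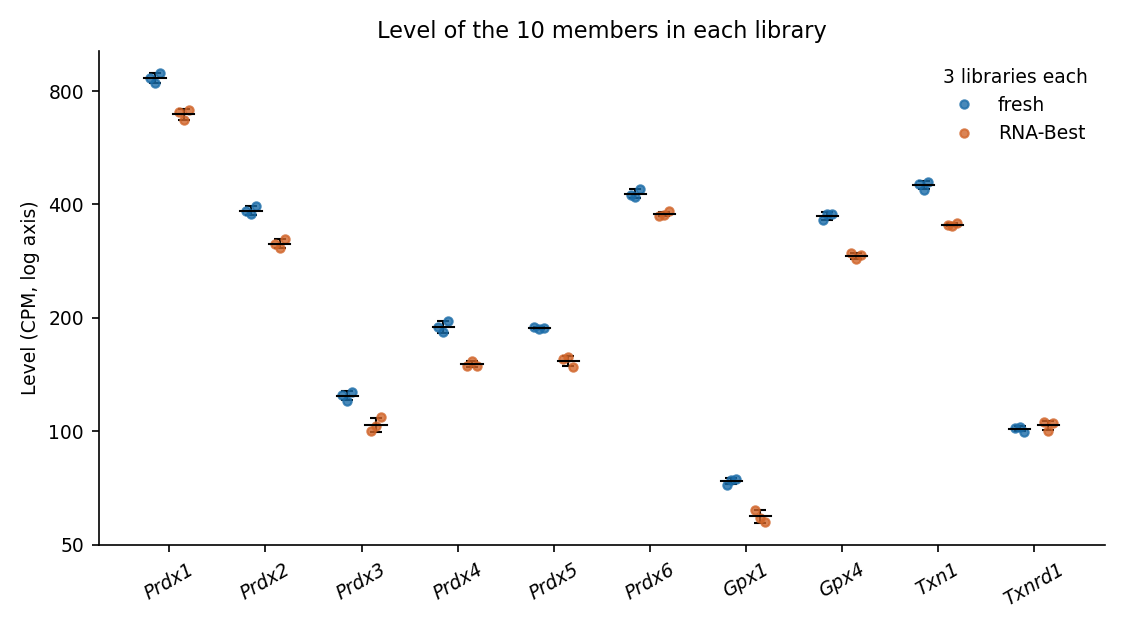
Level of each of the 10 genes in CPM on a log axis, with 1 point per library, the mean as a line and the standard deviation as a bar (n = 3 per group). In 9 genes the 3 RNA-Best points lie below the 3 fresh points, and in Txnrd1 the groups overlap.

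*Prdx1* and *Prdx2* encode the abundant cytosolic peroxiredoxins that are recycled by thioredoxin. *Prdx1*, on chromosome 4 from 116685544 to 116700822 (GRCm38, plus strand), had 867, 838 and 891 CPM in the fresh libraries and 704, 669 and 711 CPM in the RNA-Best libraries. It had more counts than any other member, and the groups lay well apart. The fitted change was -0.33 ± 0.03 on the log2 scale (SE, edgeR adjusted p = 1.11e-11). *Prdx2*, on chromosome 8 from 84969587 to 84974834 (plus strand), had 384, 376 and 396 CPM in fresh and 315, 306 and 323 CPM in RNA-Best libraries. All 3 RNA-Best values were again the lowest. The log2 fold change was -0.30 (SE 0.03, edgeR adjusted p = 2.31e-10).

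*Prdx3*, *Prdx4* and *Prdx5* cover the organelles. *Prdx3*, the mitochondrial peroxiredoxin, lies on chromosome 19 from 60864051 to 60874556 (minus strand) and had 125, 121 and 128 CPM in fresh and 100.2, 103 and 109 CPM in RNA-Best libraries. The groups were closest here among the peroxiredoxins in absolute level, yet did not overlap. The fitted change was -0.25 ± 0.04 on the log2 scale (SE, edgeR adjusted p = 9.23e-07), and with the robust length offset -0.08 (edgeR adjusted p = 0.104), which did not pass. *Prdx4*, which works in the endoplasmic reticulum during oxidative folding of secreted proteins, lies on chromosome X from 155323918 to 155340754 (minus strand) and had 189, 183 and 196 CPM in fresh and 149.5, 154 and 149 CPM in RNA-Best libraries. The value of -0.34 on the log2 scale (SE 0.03, edgeR adjusted p = 2.39e-10) was the lowest of the 6 peroxiredoxins, though within a standard error of those of *Prdx1* and *Prdx5*. With the robust length offset it was -0.19, above *Prdx1*, *Prdx6* and *Prdx2*, and after thinning to the smallest library *Prdx2* was lower. *Prdx5*, whose product is found in mitochondria, peroxisomes and cytosol, lies on chromosome 19 from 6906697 to 6910106 (minus strand). It had 189, 187 and 188 CPM in fresh and 155, 157 and 148 CPM in RNA-Best libraries. The fresh libraries had a coefficient of variation of 0.694%, the lowest of any member. The fitted change was -0.31 ± 0.03 on the log2 scale (SE, edgeR adjusted p = 5.39e-10).

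*Prdx6* encodes a peroxiredoxin with a single catalytic cysteine that is reduced by glutathione rather than thioredoxin, and that also has phospholipase activity. It lies on chromosome 1 from 161240112 to 161251219 (minus strand) and had 423, 418 and 441 CPM in fresh and 373, 376 and 384 CPM in RNA-Best libraries. The groups did not overlap, but its log2 fold change of -0.19 (SE 0.03, edgeR adjusted p = 1.15e-06) was the smallest in size among the 9 lower members. This rank held without a length offset only, since with the robust offset *Prdx6* was at -0.21, second to *Prdx1*.

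*Gpx1*, the cytosolic and mitochondrial glutathione peroxidase, lies on chromosome 9 from 108338903 to 108340343 (plus strand) and had 72.2, 74.3 and 74.7 CPM in fresh and 62.0, 59.1 and 57.4 CPM in RNA-Best libraries. It was the lowest member in CPM in both groups. The fitted change was -0.32 ± 0.04 on the log2 scale (SE, edgeR adjusted p = 1.29e-07). *Gpx4*, the enzyme that reduces lipid hydroperoxides in membranes and restrains ferroptosis, lies on chromosome 10 from 80047166 to 80056439 (plus strand) and had 363, 378 and 378 CPM in fresh and 298, 287 and 293 CPM in RNA-Best libraries. The value of -0.36 on the log2 scale (SE 0.03, edgeR adjusted p = 1.68e-12) and that of *Txn1* were the lowest of the 10 members and nearly equal. With the robust length offset *Prdx1*, *Prdx6* and *Prdx2* were lower than both. The ratio of *Gpx4* to *Gpx1* within a library averaged 2.34 ± 0.01 in fresh and 2.30 ± 0.05 in RNA-Best on the log2 scale (SD, n = 3), a difference of -0.04 (exact permutation test, two-sided, p = 0.4).

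*Txn1*, the cytosolic thioredoxin that recycles peroxiredoxins and ribonucleotide reductase, lies on chromosome 4 from 57943373 to 57956411 (minus strand) and had 455, 438 and 458 CPM in fresh and 353, 351 and 357 CPM in RNA-Best libraries. The RNA-Best libraries had a coefficient of variation of only 0.904%. The fitted change was -0.36 ± 0.03 on the log2 scale (SE, edgeR adjusted p = 1.03e-12). *Txnrd1*, the selenoenzyme that reduces it, lies on chromosome 10 from 82833951 to 82897712 (plus strand) and had 102, 103 and 99.8 CPM in fresh and 106, 100.1 and 105 CPM in RNA-Best libraries. Here the groups overlapped, and the log2 fold change was 0.02 (SE 0.04, edgeR adjusted p = 0.688). When exonic length was offset in each library, the value of *Txnrd1* turned to -0.12 (edgeR adjusted p = 0.0102), and over 18 alternative settings it ranged from -0.13 to 0.06 (adjusted p 0.00318 to 1 from edgeR, limma-voom or DESeq2). The log2 ratio of *Txn1* to *Txnrd1*, a pair chosen after the values were seen, was 2.15, 2.09 and 2.20 in fresh and 1.74, 1.81 and 1.76 in RNA-Best libraries. The mean ratio differed by -0.38 on the log2 scale, RNA-Best minus fresh, with no overlap (two-sided p = 0.1, exact permutation test, again the lowest value possible). These are the shortest and the longest member, and the difference between their fitted changes was -0.04 with the robust length offset and -0.09 with a least-squares one.

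**Figure D2:**
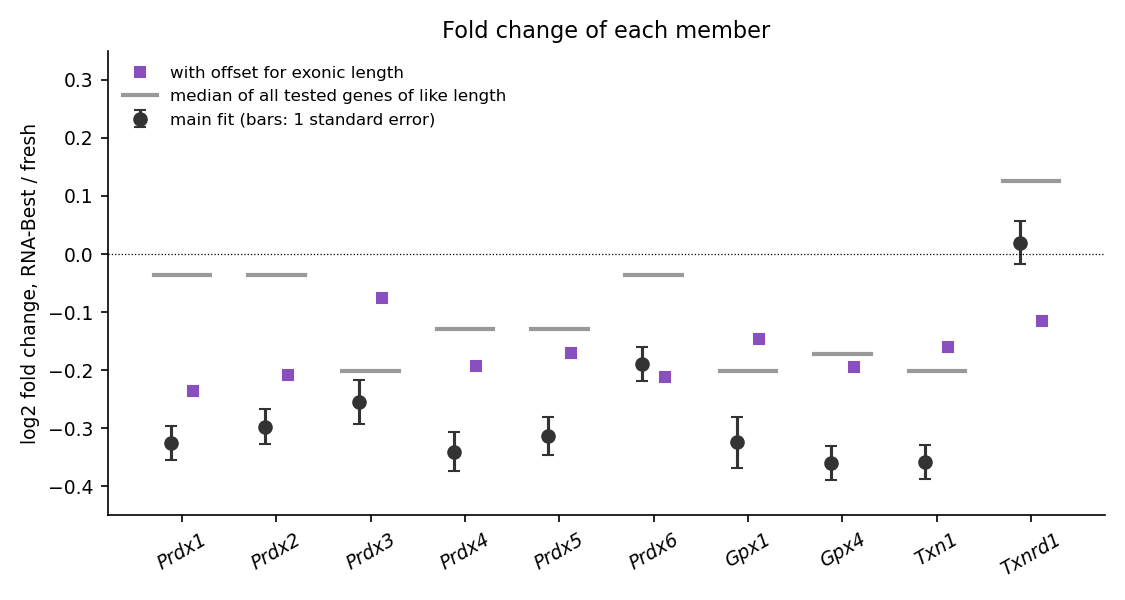
Log2 fold change of RNA-Best over fresh for each member. Circles show the edgeR fit with bars of 1 standard error, squares the fit with an offset for exonic length, and grey lines the median of all tested genes in the same range of exonic length. Every circle lies below its grey line, and the square of Txnrd1 lies at -0.12 where its circle lies at 0.02.

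Levels can be compared between genes only after division by length, here the union of a gene's exons in kilobases. In fresh libraries *Txn1* was highest at 428 ± 10.1 CPM per kb (SD, n = 3). *Prdx1* followed at 284 ± 8.72, *Gpx4* at 217 ± 5.01 and *Prdx2* at 126 ± 3.23 CPM per kb. *Prdx4*, *Prdx6* and *Prdx5* came next at 90.0, 89.0 and 87.9 CPM per kb. The ranges of neighbours among these 3 overlapped, so that their order is not set with this length. *Prdx3* at 84.1, *Gpx1* at 51.2 and *Txnrd1* at 14.3 CPM per kb were each apart from the neighbour above. In RNA-Best libraries the first 4 and the last 3 kept their ranks, and *Prdx6* followed *Prdx2* at 78.6 CPM per kb, apart from *Prdx5* (71.8), while *Prdx5*, *Prdx4* (71.7) and *Prdx3* (70.6) overlapped. The order depends on the length used. With the length of the main transcript *Gpx4* came second at 389 CPM per kb in fresh libraries, and its range overlapped that of *Prdx1* (377). The exon union of *Gpx4* has 1724 bases and its main transcript 959. With the main transcript *Prdx4* (191), *Prdx6* (179) and *Prdx5* (149) did not overlap in fresh libraries. In RNA-Best libraries the order was *Prdx6* (158), *Prdx4* (153) and *Prdx5* (122), also without overlap.

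The makeup of the peroxiredoxin family was compared as the share of each gene in the summed level per kb of the 6. *Prdx6* had 11.6%, 11.7% and 11.7% in fresh and 12.5%, 12.7% and 12.6% in RNA-Best libraries. This share was higher in RNA-Best by 0.909 percentage points with no overlap (two-sided p = 0.1, exact permutation test, adjusted p = 0.3 over 6 shares). *Prdx6* is the longest of the 6, and its share taken from the changes fitted with a length offset moved by -0.118 points with the robust and 0.0889 points with the least-squares curve, so its size was not kept with either curve and its direction turned with the robust one. *Prdx1*, the largest part, had 37.4%, 37.1% and 37.5% in fresh and 37.1%, 35.7% and 36.9% in RNA-Best libraries. Its groups did not overlap either, by a narrow gap, and the difference was -0.759 points (exact permutation test, two-sided, p = 0.1, adjusted p = 0.3). It was -0.347 points without RNA-Best replicate 2. The shares of the other 4 overlapped between groups, with differences of -0.321 points for *Prdx4*, 0.259 for *Prdx3*, -0.0520 for *Prdx2* and -0.0352 for *Prdx5* (exact permutation tests, two-sided, p of 0.3 to 1). Those of *Prdx3* and *Prdx4* also moved with single libraries, to 0.0831 and -0.168 points without RNA-Best replicate 3. From the changes fitted with a length offset the share of *Prdx3* moved by 0.968 points with the robust and 0.852 with the least-squares curve. No share could pass the threshold with 3 libraries against 3.

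**Figure D3:**
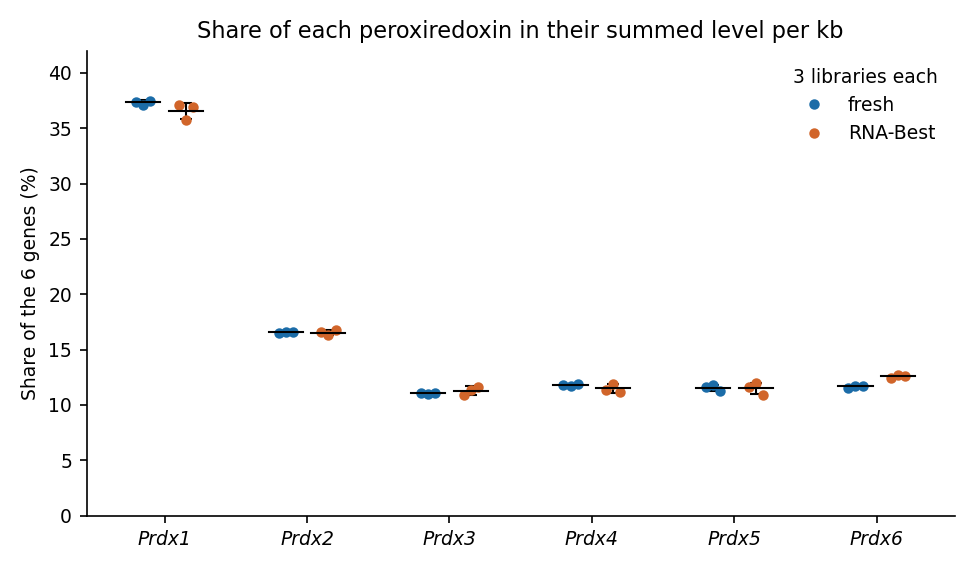
Share of each peroxiredoxin in the summed level per kb of the 6 genes, in percent, with 1 point per library, the mean as a line and the standard deviation as a bar (n = 3 per group). Prdx1 holds 37.3% on average in fresh and 36.6% in RNA-Best, and Prdx6 averages 11.7% in fresh and 12.6% in RNA-Best, a difference that shrinks to 0.0889 points or turns to -0.118 points with a length offset.

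In these libraries the log2 fold change was related to exonic length over all tested genes, and most members are short. The Spearman correlation was 0.522 across 14689 genes, which are not independent replicates. Across the 10 members Pearson's r with log2 exonic length was 0.80 and Spearman's rho 0.65, as a description of genes that share the same 6 libraries. Other measures were as closely related to the members' changes. The length of the main transcript had r of 0.84 and rho of 0.85, and the log2 level per kb in fresh libraries r of -0.80 and rho of -0.71. The GC percent of the main transcript was less closely related, with r of -0.18 and rho of -0.28. *Txn1* is the shortest member with 1051 exonic bases, and *Txnrd1* the longest with 7086. Among tested genes of 1000 to 1500 exonic bases, which include *Prdx3*, *Gpx1* and *Txn1*, the median log2 fold change was -0.20 and 43.5% were lower in RNA-Best. Among those of 5000 to 10000 bases, which include *Txnrd1*, the median was 0.13 and 10.1% were lower. The log2 fold change of each of the 10 members lay below the median of the genes in its length range. The gap was widest for *Prdx1*, at -0.29, with 3.97% of the 3700 genes of 3000 to 5000 bases lower than it. For *Prdx2* in the same range the gap was -0.26, and 5.27% of the genes were lower. The gap was narrowest for *Prdx3*, at -0.05, with 38.6% of the genes of its range lower. *Txnrd1* lay 0.11 below its range's median, with 30.4% of the genes lower.

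With the offset for exonic length, from a robust loess fit, 9 members were lower in RNA-Best, but not the same 9. *Prdx3* no longer passed, at -0.08 (edgeR adjusted p = 0.104), and *Txnrd1* passed. The size of the change was smaller than in the main fit for *Prdx1* (-0.24), *Prdx2* (-0.21), *Prdx4* (-0.19), *Gpx4* (-0.19), *Prdx5* (-0.17), *Txn1* (-0.16) and *Gpx1* (-0.15), while *Prdx6* moved from -0.19 to -0.21. With this offset 38.1% of all tested genes passed, 2748 higher and 2861 lower. The offset itself depended on how the curve was fitted. A least-squares loess, which had been tried first, left 10 members lower, with *Prdx3* at -0.14 (edgeR adjusted p = 0.00285) and *Txnrd1* at -0.13 (edgeR adjusted p = 0.00318). Under it 40.8% of all tested genes passed, 2271 higher and 3742 lower, against 3828 higher and 3651 lower with no offset, and the median of all genes was -0.04. The robust fit was adopted after these counts over all genes had been seen and before the members were read. The offset takes its length from the exon union, which exceeds the main transcript in 8 of the 10 members, and read positions along the transcripts were not analysed here.

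**Figure D4:**
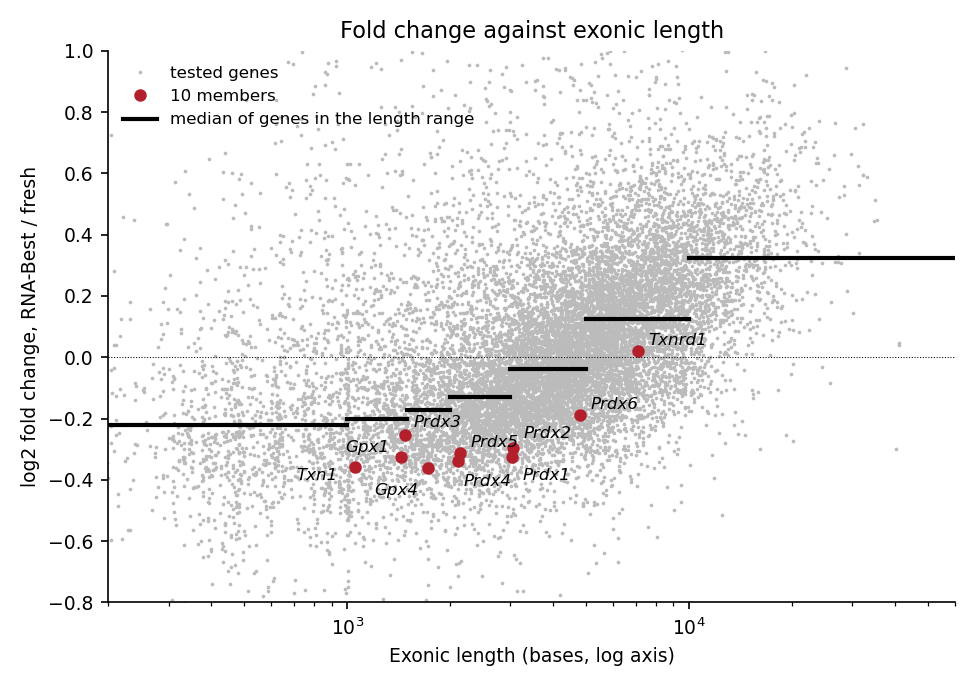
Log2 fold change of RNA-Best over fresh against exonic length in bases, on a log axis, for 14689 tested genes (grey), of which 351 lie outside the axes. Red points are the 10 members and black lines the median of the genes in each range of length, which goes from -0.22 in genes of up to 1000 bases to 0.32 in genes over 10000. The red points lie below the lines of their ranges.

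Several members have pseudogenes that their reads could also match, and the deposited values held parts of counts in every member but *Prdx3*. These and the overlapping genes are named for their sequence or position, not for their values. *Prdx1* has the processed pseudogenes *Gm21399* and *Gm7204*, which match its main transcript over 597 bases at 98.3% and 97.5% identity. In fresh libraries they held 24.8 and 11.4 CPM, or 2.87% and 1.32% of the level of *Prdx1*. Adding these and *Gm15974* to *Prdx1* gave a log2 ratio of group means of -0.31, against -0.32 without them. *Prdx2* has *Tdpx-ps1*, which matches over 597 bases at 96.3% and held 30.9 CPM in fresh libraries, or 8.02% of the level of *Prdx2*. With its pseudogenes *Prdx2* kept a log2 ratio of -0.30, against -0.29 alone. The paralog *Prdx6b* and a pseudogene of *Prdx6* together added less than 1 CPM, and *Txn-ps1* had 0.440% of the level of *Txn1*. For *Gpx4*, *Gpx4-ps2* on the same chromosome matches over 762 bases at 99.7% identity and *AC122253.3* over 535 bases at 95.1%. Neither is among the counted genes, so their counts could not be added to those of *Gpx4*. Parts of counts were present in 6 of 6 libraries for *Gpx4* and also for *Txnrd1*, for which no such copy was found, so both levels are uncertain and the source of the parts was not tested.

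Whether the counting used strand is not given in the sources used here, so reads of overlapping genes on opposite strands may have been counted together. *Prdx2* shares 173 exonic bases with *Junb*, an immediate-early transcription factor gene, and 177 with *Rnaseh2a*. *Junb* had 200.2 CPM in fresh and 165 CPM in RNA-Best libraries on average, a change of -0.27 on the log2 scale (edgeR adjusted p = 1.35e-07), and *Rnaseh2a* one of -0.29 (edgeR adjusted p = 6.3e-07), beside -0.30 for *Prdx2*. *Prdx5* shares 409 bases with *Trmt112*, which was at -0.25 (edgeR adjusted p = 0.000283). The part of these overlaps in the values of *Prdx2* and *Prdx5* was not tested. The other 8 members share no exonic base with another gene of this annotation.

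The members were set beside 7 lists of related genes. Of 24 tested genes that work with thioredoxin or peroxiredoxins, 9 were lower and 3 higher in RNA-Best, so that 12 of 24 were called, a share near the 50.8% of all tested genes. *Txn2*, the mitochondrial thioredoxin that serves *Prdx3*, was at -0.24 (edgeR adjusted p = 1.25e-07), and *Glrx5*, a mitochondrial glutaredoxin of iron-sulfur cluster assembly, was at -0.27, but at -0.16 and not past the test after thinning to the smallest library (edgeR adjusted p = 0.0874). *Sesn3*, a stress-induced sestrin, was the highest at 0.84 (0.47 with the robust length offset), with 26.5 to 27.3 CPM in fresh and 44.6 to 52.3 CPM in RNA-Best libraries. *Srxn1*, the sulfiredoxin that repairs overoxidized peroxiredoxins, was at -0.11 (edgeR adjusted p = 0.0155) and did not pass with either length offset, with DESeq2, or without fresh replicate 1 or RNA-Best replicate 1 or 2. *Txnrd2*, the mitochondrial reductase, had a value of -0.15 (edgeR adjusted p = 0.0993; it passed without fresh replicate 1 or RNA-Best replicate 1) and *Txnip*, a thioredoxin inhibitor, -0.05 (edgeR adjusted p = 0.303).

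Of the remaining glutathione peroxidases only *Gpx7*, an endoplasmic reticulum member, passed the low-count filter, at 1.69 ± 0.306 CPM in fresh and 2.86 ± 0.524 CPM in RNA-Best libraries (SD, n = 3). It was higher by 0.76 (SE 0.20, edgeR adjusted p = 0.00197). *Gpx2*, *Gpx3* and *Gpx6* had 4, 16 and 1 counts in all libraries together, and *Gpx5* and *Gpx8* had 0. By counting error alone, 0 counts leave room for 0.0632 CPM at the greatest depth and 0.611 CPM at the least.

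Among 17 tested genes of glutathione synthesis and transfer, 11 were lower and 1 higher in RNA-Best. After thinning to the smallest library 5 were lower and 2 higher. Over all tested genes 24.8% were lower and 26% higher, and after thinning 2478 of 13006 were lower and 2769 higher. In the main fit the higher gene of this list was *Gclc*, the catalytic subunit of the enzyme that limits glutathione synthesis. *Gclc* was at 0.25 (edgeR adjusted p = 7.01e-08), with 150 to 156 CPM in fresh and 177 to 189 CPM in RNA-Best libraries. Its modifier subunit *Gclm* was at -0.02 and glutathione reductase, *Gsr*, at 0.02, and neither passed. With the robust length offset *Gsr* passed as higher (0.13, edgeR adjusted p = 0.0317), and *Gclm* passed as lower with the least-squares offset (-0.14, edgeR adjusted p = 0.0286) and with the robust offset and replicate block (-0.15, edgeR adjusted p = 0.0184). *Mgst3*, a microsomal glutathione transferase, was the lowest at -0.39 (-0.20 with the robust length offset). Of the superoxide dismutase and catalase list 3 of 4 tested genes were lower: *Sod1* (-0.27), *Sod2* (-0.18, or -0.42 with the robust length offset) and the copper chaperone *Ccs* (-0.29). Catalase, *Cat*, was at 0.14 (edgeR adjusted p = 0.0427), with groups that overlapped, and it did not pass in 9 of 18 alternatives, among them the fits without fresh replicate 1 or 2 or RNA-Best replicate 1 or 3. *Ccs* did not pass with the robust length offset.

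NRF2, encoded by *Nfe2l2*, is the transcription factor that induces many thiol antioxidant genes, and KEAP1 holds it in check. *Nfe2l2* had 121 to 128 CPM in both groups and a fold change of 0.00 on the log2 scale (edgeR adjusted p = 1), and *Keap1* was at -0.13 (edgeR adjusted p = 0.00828, not past the test after thinning or without RNA-Best replicate 3). Of 15 tested genes of this list 7 were lower and 3 higher, from *Maff* at -0.27 to *Bach1*, a repressor at the same DNA sites, at 0.48. *Maff* did not pass with DESeq2, with the robust length offset (-0.16) or after thinning to the smallest library (-0.13). Among 9 genes of the selenocysteine machinery 4 were higher, among them *Secisbp2l* (0.49, or 0.31 with the robust length offset) and *Secisbp2* (0.26, not past the test after thinning), which encode selenocysteine insertion sequence binding proteins, and 1 was lower, *Sephs2* (-0.20), which makes the selenium donor and did not pass with the length offset or without RNA-Best replicate 1. Of 11 other selenoprotein genes tested 7 were lower, with *Selenoh* at -0.44 (-0.24 with the robust length offset), and 1 higher, *Selenoi* at 0.18, which turned to -0.14 (edgeR adjusted p = 0.00612) under the length offset. Without RNA-Best replicate 3, only 2 genes of the selenocysteine machinery were higher, where 3386 of all 15010 tested genes were. After thinning 1 was, where 2769 of all 13006 tested genes were higher. With the robust length offset 2 genes of that machinery were higher, 4 of the NRF2 list were lower and 1 higher, and 6 of glutathione synthesis and transfer were lower and 2 higher. In the 7 lists together 38 of 81 tested genes were lower, 14 higher and 29 did not pass, with a median log2 fold change of -0.13. The background was 24.8% lower and 26% higher over all tested genes. With the robust length offset 27 of the list genes were lower and 11 higher, where 2861 of all 14736 tested genes were lower and 2748 higher.

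**Figure D5:**
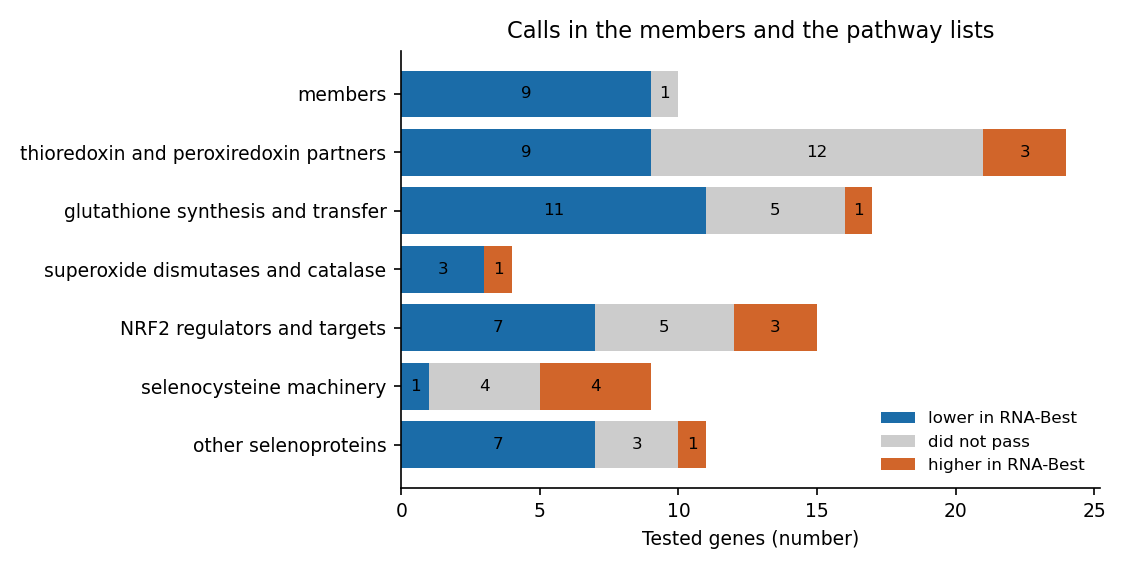
Number of tested genes lower in RNA-Best, not past the test, and higher in RNA-Best, in the 10 members and in 6 related lists (the list of other glutathione peroxidases, with 1 tested gene, is left out). The members hold 9 lower and 0 higher genes, and the selenocysteine machinery 1 lower and 4 higher.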

How the data were processed

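Bulk RNA-seq of 3 fresh and 3 RNA-Best libraries of LβT2 cells was used. The authors aligned single reads to GRCm38 (mm10) with STAR 2.5.1b and counted them per gene with featureCounts 1.5.0-p1, and the deposited values are estimated counts without scaling for depth. Values more than 0.001 from a whole number made up 9.36% to 16.3% of a library, and the setting that divides reads is not given in the sources used here.

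Counts were rounded and analysed in R 4.3.3 with edgeR 4.0.16 (TMM scaling, filterByExpr with a minimum count of 10, quasi-likelihood test), and standard errors were taken from the log2 fold change and its F statistic. Limma 3.58.1 (voom) and DESeq2 1.42.0 gave alternatives, and the test was checked on simulated counts. The paper used voom. Lengths and positions came from GENCODE release M21 on the same assembly, matched by gene identifier for 46574 genes. The paper counted reads on an earlier release, so lengths and overlaps may differ from those used in counting. The length offset was a loess fit with a span of 0.5 in each library. Least squares was fitted first, and the robust fit replaced it after counts over all genes had been seen. Pseudogenes were found with blastn 2.17.0 (at least 85% identity over at least a read length).

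Pairs of libraries within a group had a chi-square of 1.08 to 1.95 per gene, and each pair was kept as separate libraries. Columns named as stabilized were matched to RNA-Best samples by number. The members and lists were chosen with earlier results of these data known. Named are all members, fixed partners (*Txn2*, *Txnrd2*, *Txnip*, *Srxn1*, *Gsr*, *Gclc*, *Gclm*, *Sod1*, *Sod2*, *Cat*, *Nfe2l2*, *Keap1*, *Sephs2*, *Secisbp2*) and the highest and lowest called gene of each list, beside markers and genes that share sequence with a member. Protein sequences were not used here.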

Additional observations from a re-analysis of the deposited data

How the results depend on the processing

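The members were tested under 18 alternatives. The robust form of the length offset was chosen after counts over all genes from the least-squares form had been seen, and shares and ratios under the offsets were added after seeing the data. Of 180 comparisons of a member with its main result 169 kept direction and side of the threshold. In each fit that left out 1 library 9 members were lower in RNA-Best, where 42.4% to 49.3% of all genes were called. A test against a 1.2-fold change (glmTreat), which asks for a larger change, passed 4 (*Prdx1*, *Prdx4*, *Gpx4* and *Txn1*), all lower, and the least-squares offset 10. That fold test called 1693 of all genes in place of 7479 and 6 list genes in place of 52, 4 higher and 2 lower. Of the list genes 14 were higher in the main result, 8 after thinning to the smallest library and 7 with the least-squares offset. Over all tested genes 3828 of 14736, 2769 of 13006 and 2271 of 14736 were higher in these fits. Leaving out single libraries gave 44 to 51 called list genes.

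*Txnrd1* was -0.0273 with no filter, -0.115 with the length offset, -0.116 with block and offset and -0.133 with the least-squares offset. *Selenoi* was -0.137, -0.148 and -0.151 in the last 3. *Txnip* was 0.0334 with the offset and 0.0366 with block and offset, and with no filter *Gsr* was -0.0251 and *Nfe2l2* -0.0468. Without single libraries *Gclm* ranged from -0.0572 to 0.0354 and *Nfe2l2* from -0.0205 to 0.0252, and the share difference of *Prdx2* from -0.153 to 0.0655 points and of *Prdx5* from -0.256 to 0.250. Share differences from the changes fitted with the length offset, and with block and offset, were 0.968 and 0.899 points for *Prdx3*, 0.0356 and 0.0307 points for *Prdx4*, 0.227 and 0.326 for *Prdx5* (0.128 with least squares) and -0.118 and -0.125 for *Prdx6*. The cause was not tested.

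Deviations from the group means were not shared by libraries of equal number (r across genes of -0.00626, 0.00938 and -0.00752). Libraries within a group differed by little beyond counting error (chi-square of 1.08 to 1.95 per gene). These values therefore cannot show whether libraries of equal number are paired. With the replicate block 9 members and 7472 of all genes passed, and *Nfe2l2* was -0.00603. Depth limits the rare glutathione peroxidases.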
